A study of Mus musculus with 31 samples.

Results

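The cytoplasmic ribosomal protein genes were followed through RNA sequencing of mouse brain, in temporo-occipital cortex tissue and in CD11b+ microglia isolated from whole brain. The genes were chosen by name alone: symbols of Rpl or Rps followed by a number, with an optional letter and digit, together with Rplp0, Rplp1, Rplp2 and Rpsa. This gave 89 of the 55401 genes in the tables, 53 with Rpl names for the large subunit and 36 with Rps names (Rpsa among them) for the small subunit. The annotation lists 83 of them as protein-coding and 6 as pseudogenes, which are Rpl32l, Rpl6l, Rps12l1, Rps3a2, Rps3a3 and Rps4l. A gene counted as measured when 3 or more libraries of a table held 10 or more counts. On that rule 86 genes were measured in cortex, 86 in female and 86 in male CD11b+ microglia, and 85 in all of them. Rps12l1 and Rpl10l were measured in none, Rpl3l in cortex only, and Rpl39l in CD11b+ microglia only.

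All mice were 13 months old, untreated and on a C57BL/6J background. A+ mice carry APPswe/PS1dE9, a single transgene of mutant human presenilin and chimeric amyloid precursor protein driven by the mouse prion protein promoter, and A- mice lack it. Pki/ki mice are homozygous for the PLCγ2-P522R knock-in (KI), made with CRISPR/Cas9, and Pwt/wt mice have the unedited gene. PLCγ2 is a phospholipase of microglial receptor signalling. Male microglia came from A- mice only, as WT (n = 3) and KI (n = 4) libraries. Female microglia were A-/Pwt/wt (n = 7), A+/Pwt/wt (n = 4) or A+/Pki/ki (n = 4). Female cortex was A-/Pwt/wt (n = 1), A+/Pwt/wt (n = 4) or A+/Pki/ki (n = 4). Each library is labelled with a mouse number of its own within its preparation. CD11b beads can also hold other myeloid cells, and the transgene promoter is not specific to microglia. The labels give 1 batch tag to the males, another to both A+ female microglia groups and another to the A-/Pwt/wt females, so that A+ and A- microglia cannot be told apart from that tag. Cortex has no tag.

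Each ribosome is built from a small subunit that reads the mRNA and a large subunit that forms the peptide bond, and each subunit holds a fixed set of proteins in nearly equal numbers. Most of their mRNAs begin with a 5' terminal oligopyrimidine (TOP) tract, through which the mTOR pathway sets how strongly they are translated. The genes are short and highly transcribed, and the mouse genome holds many processed pseudogenes copied from their mRNAs, which can draw reads away from the gene.

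Library totals were about 16229800 to 25118200 counts (median 20220400) in the 22 CD11b+ libraries and 25226500 to 43129400 counts (median 34652500) in the 9 cortex libraries. Microglial markers summed to 11907 to 27639 CPM (counts scaled to a common library total) in CD11b+ libraries against 404 to 903 CPM in cortex, and neuronal markers to 173 to 4283 CPM against 11005 to 12537 CPM. Every CD11b+ library was thus above every cortex library in microglial markers. Markers of other cells were also present, with oligodendrocyte markers summing to 6939 to 74236 CPM in CD11b+ libraries against 3813 to 6450 CPM in cortex, choroid plexus markers to 115 to 9175 CPM against 21.5 to 570 CPM, and astrocyte markers to 451 to 2994 CPM against 4449 to 5995 CPM. In most CD11b+ libraries the oligodendrocyte sum was above the microglial sum, among them every KI male and no WT male. The exceptions were the WT males, A-/Pwt/wt female 242 and A+/Pki/ki females 394 and 405. The part of these cells in the ribosomal protein levels was not tested. Mitochondrially encoded genes took 4.02 to 5.58% of counts in cortex, 3.97 to 5.02% in WT males and 7.40 to 12.8% in KI males. In females they took 5.10 to 24.5% in A-/Pwt/wt, 9.0 to 16.7% in A+/Pwt/wt and 3.45 to 19.4% in A+/Pki/ki microglia. In bulk libraries, fewer cells of a type and less RNA per cell cannot be told apart.

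The ribosomal protein genes took a larger share of the RNA in isolated microglia than in cortex. They made up 3.09 to 5.53% of counts (median 3.80%) in CD11b+ libraries and 1.39 to 1.83% (median 1.63%) in cortex, with no overlap. In males the share was 3.42% ± 0.192 (SD, n = 3) in WT and 3.65% ± 0.720 (SD, n = 4) in KI microglia. In females it was 4.08% ± 0.981 (SD, n = 7) in A-/Pwt/wt, 4.23% ± 0.565 (SD, n = 4) in A+/Pwt/wt and 4.59% ± 0.373 (SD, n = 4) in A+/Pki/ki microglia. In cortex it was 1.43% in the A-/Pwt/wt library, 1.63% ± 0.196 (SD, n = 4) in A+/Pwt/wt and 1.69% ± 0.110 (SD, n = 4) in A+/Pki/ki tissue. Within each preparation, the genotype groups of more than 1 library overlapped.

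The mean log2 CPM of the genes varied more among mice of a genotype than between genotypes. The 7 A-/Pwt/wt female libraries ran from 7.33 to 8.63 (median 8.04), a span that took in every A+ female library. The A+/Pwt/wt female libraries were at 7.99, 8.0, 8.09 and 8.35, and the A+/Pki/ki female libraries at 8.03, 8.08, 8.13 and 8.53. The highest and the lowest female library, of mouse 236 and mouse 245, were both A-/Pwt/wt and differed 2.46-fold. In males the WT libraries were at 7.68, 7.69 and 7.82, and the KI libraries at 7.69, 7.69, 7.86 and 8.36, the last of mouse 104. Cortex was tighter, with A+/Pwt/wt libraries at 6.46, 6.70, 6.87 and 6.93, A+/Pki/ki libraries at 6.71, 6.79, 6.87 and 6.93, and the A-/Pwt/wt library at 6.58.

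**Figure D1:**
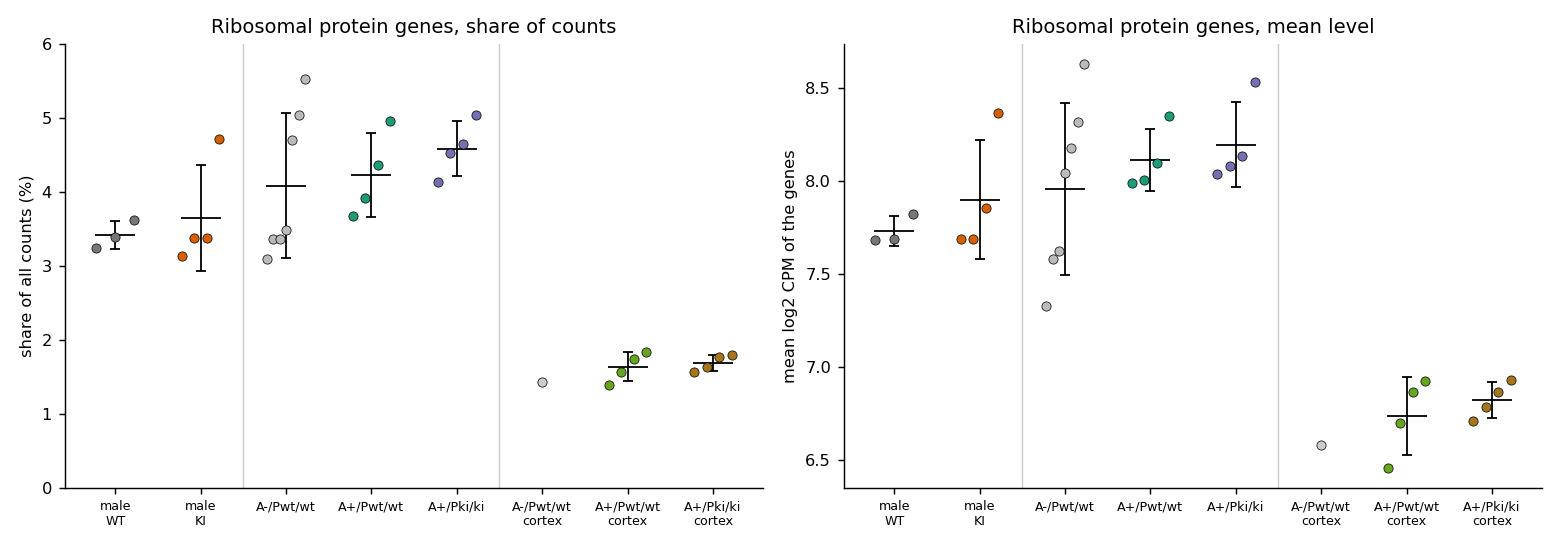
Ribosomal protein genes in each library, as their summed share of all counts (left, percent) and as their mean log2 CPM (right, an axis that does not start at 0). Points are libraries, and bars are group means ± SD. All CD11b+ libraries, at 3.09% or more, lie above all cortex libraries, at 1.83% or less, while genotypes of a preparation overlap.

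Levels per transcript length were uneven among the genes. Length here is that of the principal transcript, which for the 80 protein-coding genes measured in all tables ran from 345 to 5179 bases (median 882). In A+/Pwt/wt cortex the median gene stood at 215 CPM per kb, with 68 of the 80 between 100 and 1000 CPM per kb. The highest was Rplp1, an acidic protein of the stalk that recruits elongation factors, at 1137 ± 165 CPM per kb (SD, n = 4). It was followed by Rps15 at 573 ± 72.9 CPM per kb and Rpl13 at 536 ± 76.5 CPM per kb. In A+/Pwt/wt microglia the median was 588 CPM per kb and Rplp1 again stood first, at 2984 ± 550 CPM per kb (SD, n = 4). Rps29 and Rps27, small zinc-binding proteins of the small subunit, came next at 2538 ± 495 and 1919 ± 323 CPM per kb. The order of the 80 genes in both preparations had a Spearman rho of 0.815, a description over genes that share transcript length and base composition. Rpl24, Rps10 and Rpl7l1 were the lowest protein-coding genes in both.

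The other stalk proteins and the 5S particle were nearer the middle. In A+/Pwt/wt microglia, Rplp0, the scaffold of the stalk, stood at 608 ± 44.3 CPM per kb and Rplp2 at 540 ± 81.2 CPM per kb (SD, n = 4). Rpl5 and Rpl11, which carry the 5S rRNA and can bind Mdm2, stood at 341 ± 34.7 and 632 ± 76.6 CPM per kb. Rpsa, the small-subunit protein also known as the laminin receptor, stood at 494 ± 89.5 CPM per kb. Its range overlapped those of Rplp2 and Rpl11, so the order of these 3 is within their spread.

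Shorter transcripts varied more from mouse to mouse. Within genotype groups the SD of log2 CPM had a median over genes of 0.157 in cortex, 0.384 in female and 0.251 in male microglia. Over the 80 genes its Spearman rho with transcript length was -0.50, -0.56 and -0.41 in turn. The gene with the largest SD in each preparation was Rpl26, at 1.97 in cortex, 1.67 in female and 1.94 in male microglia.

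The spread of Rpl26, a large-subunit protein near the peptide exit, went with a split of counts between the gene and a pseudogene. The gene lies at chr11:68901583-68906989 on the plus strand (GRCm38), and the processed pseudogene Gm15772 at chr5:3236431-3236868 on the plus strand. Their sequences match at all but 2 of 438 coding bases, C177T and T288C, counted from 1 at the A of the start codon with the base of Rpl26 first. The stretches around both positions are shown because coding reads that miss both positions are identical in gene and copy, and the differing base is in capitals.
Rpl26, coding bases 153 to 201: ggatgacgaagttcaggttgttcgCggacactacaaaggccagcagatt
Gm15772, same bases: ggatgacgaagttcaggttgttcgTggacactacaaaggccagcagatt
Rpl26, coding bases 264 to 312: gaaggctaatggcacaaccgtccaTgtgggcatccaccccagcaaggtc
Gm15772, same bases: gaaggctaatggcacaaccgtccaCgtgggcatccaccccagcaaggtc

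The libraries fell into 3 separate ranges by the share of the summed Rpl26 and Gm15772 CPM that was counted at Gm15772. In 21 libraries the share was 0.229 to 0.917%, among them all 11 libraries of A-/Pwt/wt and WT mice. It was 27.0 to 29.8% in 6 libraries, those of A+/Pwt/wt females 331, 375 and 380, KI male 139, and the cortex of A+/Pwt/wt mouse 259 and A+/Pki/ki mouse 203. In the remaining 4 it was 93.5 to 94.2%, those of A+/Pki/ki females 394 and 405, KI male 136 and the cortex of A+/Pwt/wt mouse 329. In these 4, Rpl26 was at 14.1, 14.6, 13.5 and 5.04 CPM, and Gm15772 at 229 to 230 CPM in the females, 193 CPM in the male and 80.5 CPM in the cortex. The sum of both genes was 244 CPM in each of these females, 206 CPM in the male and 85.5 CPM in the cortex. Minima in the other libraries were 312 CPM in female microglia, 336 CPM in male microglia and 186 CPM in cortex. In the first 21, Rpl26 ran from 222 to 925 CPM and Gm15772 from 0.715 to 5.51 CPM. None of the 10 libraries in the upper ranges came from an A-/Pwt/wt or WT mouse, and both knock-in and unedited A+ mice were among them. The cause of the split was not tested.

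**Figure D2:**
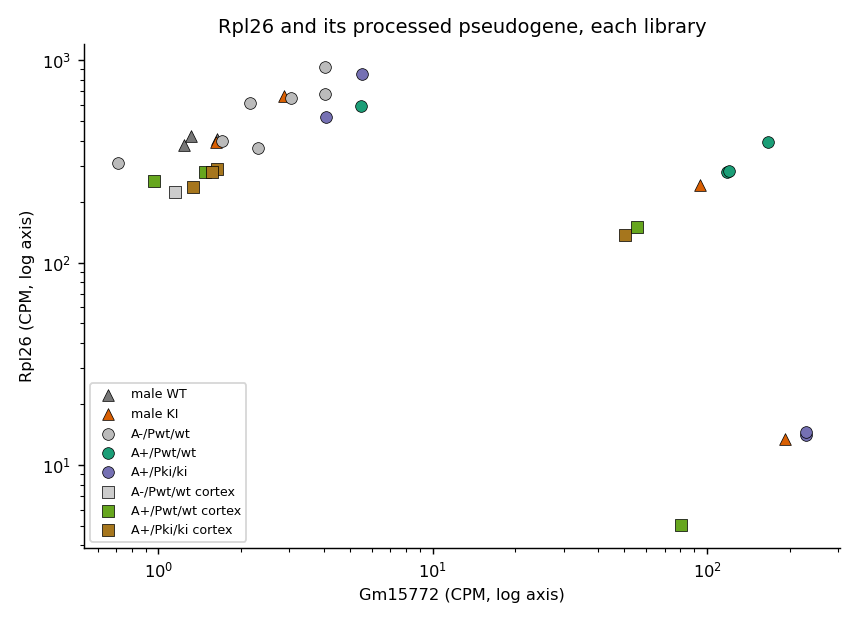
Rpl26 CPM (vertical, log axis) against CPM of its pseudogene Gm15772 (horizontal, log axis), 1 point per library, with triangles for male and circles for female CD11b+ microglia and squares for cortex. Most libraries lie at the left, 6 at the upper right with 27.0 to 29.8% of the sum at Gm15772, and 4 at the lower right with 93.5 to 94.2%.

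A second gene, Rps2, showed a like split with the transcribed processed pseudogene Rps2-ps10 on another chromosome. Rps2, a small-subunit protein at the mRNA entry channel, lies at chr17:24718116-24721929 on the plus strand. In 23 libraries Rps2-ps10 held under 0.32% of the summed CPM, and in 8 it held 16.0 to 40.0%. The 8 were female A+/Pki/ki mice 335, 394 and 405, female A+/Pwt/wt mice 331 and 380, and the cortex of A+/Pki/ki mouse 203 and A+/Pwt/wt mice 257 and 329. All were A+, and no male library was among them. Rps2 was at 266 CPM in the library of mouse 394, against 383 to 892 CPM in the A-/Pwt/wt females.

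Rpl29, a basic large-subunit protein (chr9:106429454-106431568, plus strand), has a processed pseudogene, Gm13841 (chr5:115801677-115802159, minus strand), with 3 differences over 483 coding bases, C72A, C300T and T423C. The stretch around the first is shown, with the differing base in capitals.
Rpl29, coding bases 48 to 96: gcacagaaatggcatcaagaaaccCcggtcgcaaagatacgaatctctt
Gm13841, same bases: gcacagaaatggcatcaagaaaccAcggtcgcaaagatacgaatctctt
Rpl29 was at 35.8 CPM in the cortex of A+/Pwt/wt mouse 329 and at 119 to 189 CPM in the other cortex libraries. Gm13841 held 10.1% of the summed CPM in that library and at most 2.64% in the other libraries. The same library was thus low in Rpl26 and Rpl29 together, and it had the lowest mean level of the genes in cortex.

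For most of the genes such copies held few of the reads. Of 13517 annotated pseudogenes in the tables, 1995 matched 80 of the protein-coding genes over 100 or more bases at 80% identity or higher. Counts of each gene and its copies were summed over the libraries of a preparation. The median gene kept 98.9% of that sum in cortex, 99.0% in female and 99.1% in male microglia. Rpl24 and Rpl7l1 kept under 50%. Rpl24 also shares 47.0% of its exon bases with an overlapping gene, and Rps10 shares 28.7%, so the low levels of both are uncertain as measures of the mRNA. In all, 16 of the 89 genes share over 10% of their exon bases with another annotated gene.

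The first comparison asked what the knock-in did in male microglia without amyloid. No ribosomal protein gene was called higher and 1, Rps10, was called lower (edgeR quasi-likelihood test, Benjamini-Hochberg adjusted p under 0.05), where 11.1% of the 16373 genes tested were called higher and 5.26% lower. At an unadjusted p under 0.05, 10 were higher and 1 lower, against 19.2% and 14.1% of all genes. DESeq2 called 5 higher, Rpl9, Rpsa, Rps15, Rpl37 and Rpl38, and Rps10 lower, against 14.8% and 7.95% of all genes. With limma, 0 were called higher and Rps10 lower, against 10.1% and 5.23%. The fold changes leaned upward without passing the test, with 77 of 86 above 0 and a median log2 fold change of 0.215, against -0.001 over all genes, of which 49.8% were above 0. Without KI male 104 the median over the ribosomal protein genes was 0.034. Astrocyte markers summed to 605 to 761 CPM in WT and 1039 to 2174 CPM in KI males, neuronal markers to 200 to 291 CPM and 640 to 1479 CPM, and oligodendrocyte markers to 18471 to 23321 CPM and 26517 to 60497 CPM. All 10 neuronal and all 8 astrocyte markers were called higher in KI, as were 24 of 31 mitochondrially encoded genes, 5 of 8 oligodendrocyte markers and 3 of 8 endothelial markers, while 1 of 10 microglial markers was called lower. The part of these lists in the fold changes was not tested.

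Rpl39l, at 1.04 CPM or less in every male, had the highest log2 fold change in KI males, 0.79 ± 0.63, and the next were well-measured genes. Rpl38, a large-subunit protein linked to translation of Hox mRNAs, was at 172, 182 and 192 CPM in WT and at 212, 226, 263 and 428 CPM in KI males. The groups did not overlap, and the log2 fold change was 0.63 ± 0.23 (SE; adjusted p = 0.0857, edgeR). Rps15, a protein of the small-subunit head, was at 459, 462 and 496 CPM in WT and 510, 624, 695 and 912 CPM in KI males, a log2 fold change of 0.54 ± 0.19 (adjusted p = 0.0773, edgeR). The highest value of both was that of mouse 104. Rpsa was at 596, 604 and 609 CPM in WT and at 647, 756, 981 and 992 CPM in KI males, again without overlap, with a log2 fold change of 0.49 ± 0.17 (adjusted p = 0.0781, edgeR). Rpl41, the shortest ribosomal protein, was at 378, 397 and 440 CPM in WT and 486 to 519 CPM in 3 KI males, with 827 CPM in mouse 104 (adjusted p = 0.0996, edgeR). Without mouse 104, Rps15, Rpl37, Rpl38 and Rpl41 were each called higher, at smaller log2 fold changes of 0.37, 0.37, 0.36 and 0.30, where 20.2% of all genes were called higher and 13.3% lower in that fit. Rpl10a, which binds near the exit site for tRNA, was then called lower at -0.29, as was Rps10.

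In total, 11 ribosomal protein genes lay wholly above and 2, Rps10 and Rpl24, wholly below the WT males, against 15.4% of all genes tested in each direction. The stalk and 5S particle genes were not among them. Rplp0 was at 742, 786 and 798 CPM in WT and 651, 680, 732 and 1016 CPM in KI males, a log2 fold change of -0.01 ± 0.17. It was the lowest of the 3 stalk genes, which had a median of 0.18 and a highest of 0.39. Rpl5 and Rpl11 differed by 0.09 ± 0.16 and 0.15 ± 0.16 on the log2 scale. Shorter and longer transcripts had medians of 0.267 and 0.165, while all tested genes shorter than 882 bases had a median of 0.073.

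Rps10 was the gene called in KI males. This protein of the small-subunit head was at 4.95, 6.30 and 7.29 CPM in WT and at 2.96, 3.10, 3.69 and 4.08 CPM in KI males, without overlap. The log2 fold change was -0.84 ± 0.21 (adjusted p = 0.029, edgeR). These levels are far below those of most of the other proteins, and when reads of its pseudogenes were added the log2 fold change was -0.40 and the call was lost. It was also lost in 6 of the 7 fits that left out 1 library. Rps10 differed in the other direction, by 0.42 ± 0.26, between A+/Pki/ki and A+/Pwt/wt females, where its ranges overlapped.

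The same knock-in on the A+ background was compared in female microglia and in cortex, and no ribosomal protein gene was called in either tissue, nor was any of the 17039 and 18640 genes tested (0% in each direction). In microglia 1 ribosomal protein gene was past an unadjusted p of 0.05 (edgeR), Rpl29, at 206, 228, 234 and 278 CPM in A+/Pwt/wt and 249, 309, 373 and 450 CPM in A+/Pki/ki mice. Its log2 fold change was 0.48 ± 0.20 (adjusted p = 0.853, edgeR). In cortex it was Rpl21, again higher, at 251, 255, 263 and 299 CPM in A+/Pwt/wt and 279, 298, 319 and 330 CPM in A+/Pki/ki tissue. Of all genes 1.78% were higher and 1.59% lower at that unadjusted p in microglia, and 1.34% and 1.42% in cortex. DESeq2 called 2 genes higher and 5 lower in microglia and 4 higher and 7 lower in cortex, and neither it nor limma called a ribosomal protein gene. No ribosomal protein gene had groups without overlap, against 2.09% higher and 0.722% lower of all genes in microglia and 0.944% and 0.901% in cortex.

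The shift of the whole list was small on the A+ background. In microglia the median log2 fold change was 0.061 with 62 of 86 above 0, against 0.004 over all genes, and it was -0.053 without mouse 335. In cortex the median was 0.048 with 79 of 86 above 0, against -0.002 over all genes, and it was -0.021 without mouse 329. The sign of each median thus rested on 1 library. Rplp0, Rplp1 and Rplp2 differed by 0.20 ± 0.13, 0.05 ± 0.24 and 0.07 ± 0.18 (log2) in microglia and by 0.03 ± 0.07, 0.04 ± 0.10 and 0.06 ± 0.09 in cortex. The cortex SEs bound any change in the stalk genes more tightly than the microglia SEs. All 10 neuronal, 8 astrocyte, 8 oligodendrocyte, 8 endothelial and 6 choroid plexus markers leaned lower in A+/Pki/ki than in A+/Pwt/wt microglia. Their median log2 fold changes were -0.84, -0.67, -0.28, -0.46 and -1.12 in turn. The 34 mitochondrially encoded genes also did, at a median of -0.66. All 10 microglial and 7 neutrophil markers leaned higher, at medians of 0.22 and 2.59. None was called (edgeR), and their part in the list shift was not tested.

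Mouse 335 stood apart among the A+/Pki/ki females in 8 genes, the short transcripts of Rpl37, Rpl38, Rpl41, Rps15, Rps21, Rps27 and Rps29 and the longer one of Rpsa. Its Rps29 was at 1332 CPM and its Rpsa at 1381 CPM, against group medians of 817 and 848 CPM. Its library also had 19.4% of counts from mitochondrially encoded genes, the highest of its group, and neutrophil markers summed to 1910 CPM in it against 41.5 to 523 CPM in the other 3. Its oligodendrocyte, neuronal, astrocyte and choroid plexus marker sums were the highest of its group too, at 64430, 2116, 1894 and 2404 CPM. Those of the other 3 reached at most 27480, 506, 1204 and 916 CPM. Microglial markers summed to 15079 CPM in it and to 21615 to 23933 CPM in the other 3. The part of these markers and of the mitochondrially encoded genes in its ribosomal protein levels was not tested.

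The knock-in effect in males was set against that in A+ females in 1 fit with an interaction, in which sex, transgene and batch tag cannot be told apart. No ribosomal protein gene and none of the 17619 genes tested was called (0% in each direction, edgeR; DESeq2 called 801 higher and 366 lower, the latter 2.08%, with Rps10 among them), while 2 of the ribosomal protein genes were lower and 0 higher at an unadjusted p under 0.05, against 9.07% and 17.4% of all genes. They were Rps10 at -1.23 ± 0.34 (log2 difference of effects; adjusted p = 0.143, edgeR) and Rpl24 at -0.82 ± 0.35. Rpl38 had a difference of 0.80 ± 0.41 and Rpl37 of 0.74 ± 0.37. With mouse 335 left out, 9 were called higher in males, Rpl31, Rpl9, Rpl13a, Rpsa, Rps15, Rpl41, Rpl38, Rpl37 and Rps2, and Rps10 was called lower, where that fit called 19.9% of all genes higher and 15.6% lower. In the females of that fit, Rps2-ps10 held 40.0% and 16.0% of the CPM summed with Rps2 in A+/Pki/ki mice 394 and 405. It held 21.9% and 21.4% in A+/Pwt/wt mice 331 and 380, and at most 0.242% in any male. The part of this split in the Rps2 call was not tested. The list median was 0.158 (0.014 over all genes) and -0.054 under scaling to library totals, which moved the median of all genes to -0.204.

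**Figure D3:**
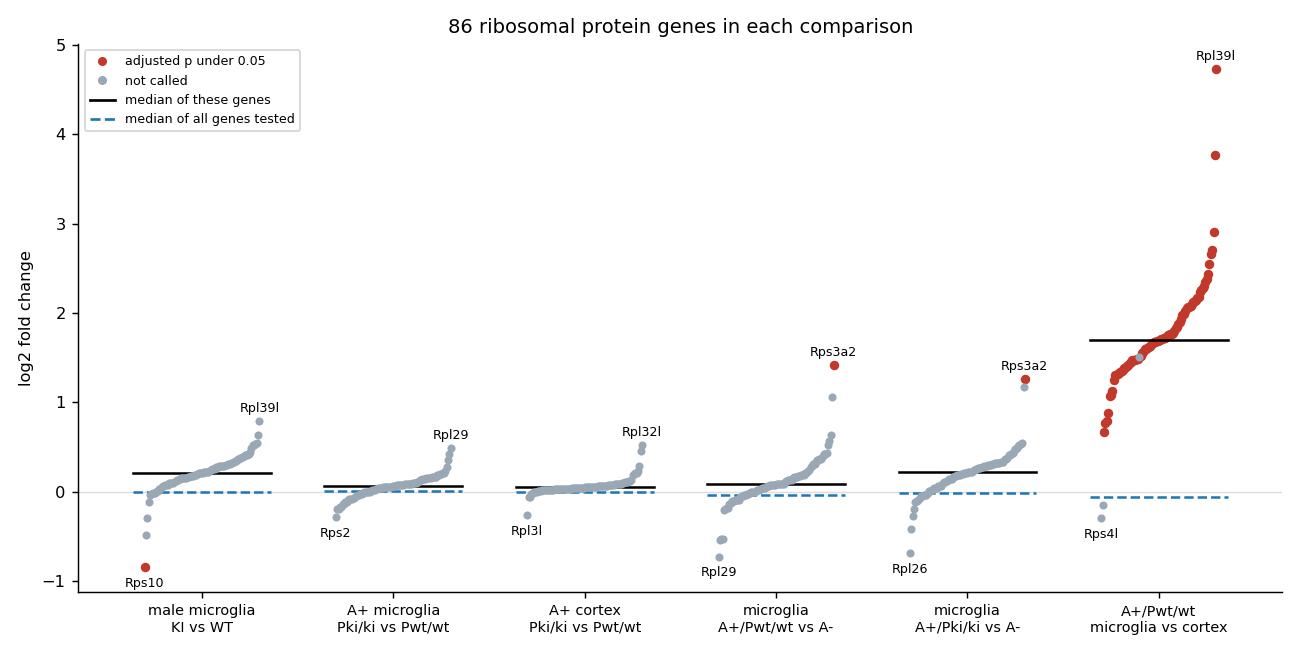
Log2 fold change of the 86 ribosomal protein genes tested in 6 comparisons, sorted within each. Red points have an edgeR adjusted p under 0.05, black lines are medians of these genes and dashed lines medians of all genes tested. In the microglia against cortex comparison 83 points are red, and in each of the others at most 1 is.

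The effect of the APP/PS1 transgene was compared in microglia with the unedited gene, and A+/Pki/ki mice were set against the same A-/Pwt/wt libraries, so that the comparisons share controls and carry the batch tag. In each, 1 ribosomal protein gene was called higher, Rps3a2, and none lower (edgeR, adjusted p under 0.05). Of all genes, 1.01% were called higher and 0.282% lower in A+/Pwt/wt, and 1.35% and 0.287% in A+/Pki/ki mice. At an unadjusted p under 0.05 the ribosomal protein genes numbered 1 higher and 2 lower in A+/Pwt/wt, and 3 higher and 1 lower in A+/Pki/ki mice, against 4.86% and 5.25% of all genes in the first and 9.06% and 6.11% in the second. The median log2 fold change over the list was 0.081 (-0.034 over all genes) in A+/Pwt/wt and 0.216 (-0.015 over all genes) in A+/Pki/ki mice. The first was -0.010 without A+/Pwt/wt mouse 331.

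Rps3a2 is a processed pseudogene of Rps3a1, a small-subunit protein at the mRNA exit. It lies at chr14:88123017-88123808 on the minus strand (GRCm38), away from Rps3a1 at chr3:86137940-86142702 on the minus strand. It differs from the Rps3a1 coding sequence at 4 of 792 aligned bases, T216C, T534C, A645T and T668C, with the Rps3a1 base first. The stretch with the last pair of differences is shown, both in capitals.
Rps3a1, coding bases 621 to 669: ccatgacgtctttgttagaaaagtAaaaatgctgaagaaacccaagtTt
Rps3a2, same bases: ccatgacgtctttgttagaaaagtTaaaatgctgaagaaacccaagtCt

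Rps3a2 ran from 1.71 to 3.92 CPM in the 7 A-/Pwt/wt females. It was at 5.67, 6.55, 7.69 and 9.48 CPM in A+/Pwt/wt and 5.44, 6.26, 6.38 and 8.59 CPM in A+/Pki/ki females. All 8 A+ libraries lay above all 7 A- libraries. The log2 fold changes were 1.41 ± 0.26 (adjusted p = 0.0187) and 1.26 ± 0.26 (adjusted p = 0.036, both edgeR). As a share of summed Rps3a1 and Rps3a2 CPM it was 0.246 to 0.345% in A- and 0.591 to 0.817% in A+ females. Rps3a1 itself was at 657 to 1556 CPM in A- and 820 to 1371 CPM in A+ females, with overlap. In males, all A-, Rps3a2 was at 1.72 to 3.10 CPM, and in cortex, which includes A+ tissue, at 1.05 to 2.12 CPM. Markers of border macrophages, another CD11b+ cell, summed to 245 to 550 CPM in A- and 176 to 287 CPM in A+ females, with 2 of 6 called lower in A+/Pwt/wt, and their part was not tested. The call was lost without A+/Pwt/wt mouse 331, 367 or 380, and in the A+/Pki/ki comparison in 7 of the fits that left out 1 library, with log2 fold changes of 1.19 or higher in all of those.

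Among protein-coding genes, Rpl29 was lower in A+/Pwt/wt without passing the test, at 206 to 278 CPM against 272 to 563 CPM (median 420 CPM) in A-/Pwt/wt microglia. The log2 fold change was -0.72 ± 0.20 (adjusted p = 0.134, edgeR), and DESeq2, which called 1.53% of all genes lower, called it. The pseudogene Gm13841 held 1.21 to 1.58% of the summed Rpl29 and Gm13841 CPM in A+/Pwt/wt and 0 to 0.153% in A-/Pwt/wt microglia. The sum itself was 209 to 282 CPM against 272 to 563 CPM. The part of the pseudogene in the Rpl29 difference was not tested. Rpl10a was at 394, 407, 478 and 485 CPM in A+/Pki/ki against 222 to 391 CPM (median 286 CPM) in A-/Pwt/wt microglia, without overlap. Its log2 fold change was 0.52 ± 0.17 (adjusted p = 0.164, edgeR), and DESeq2, which called 3.45% of all genes higher, called it too. Rps3a2 and Rpl10a were the only genes of the list with A+/Pki/ki wholly above, against 2.5% of all genes, and 0 lay wholly below, against 1.22%. In A+/Pwt/wt, Rps3a2 lay wholly above (1.95% of all genes) and Rps4l wholly below (1.39%), the latter at 10.5 to 13.8 CPM against 14.5 to 25.3 CPM. Rps29 and Rps27 had log2 fold changes of 0.63 ± 0.39 and 0.57 in A+/Pwt/wt, within wide spreads.

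**Figure D4:**
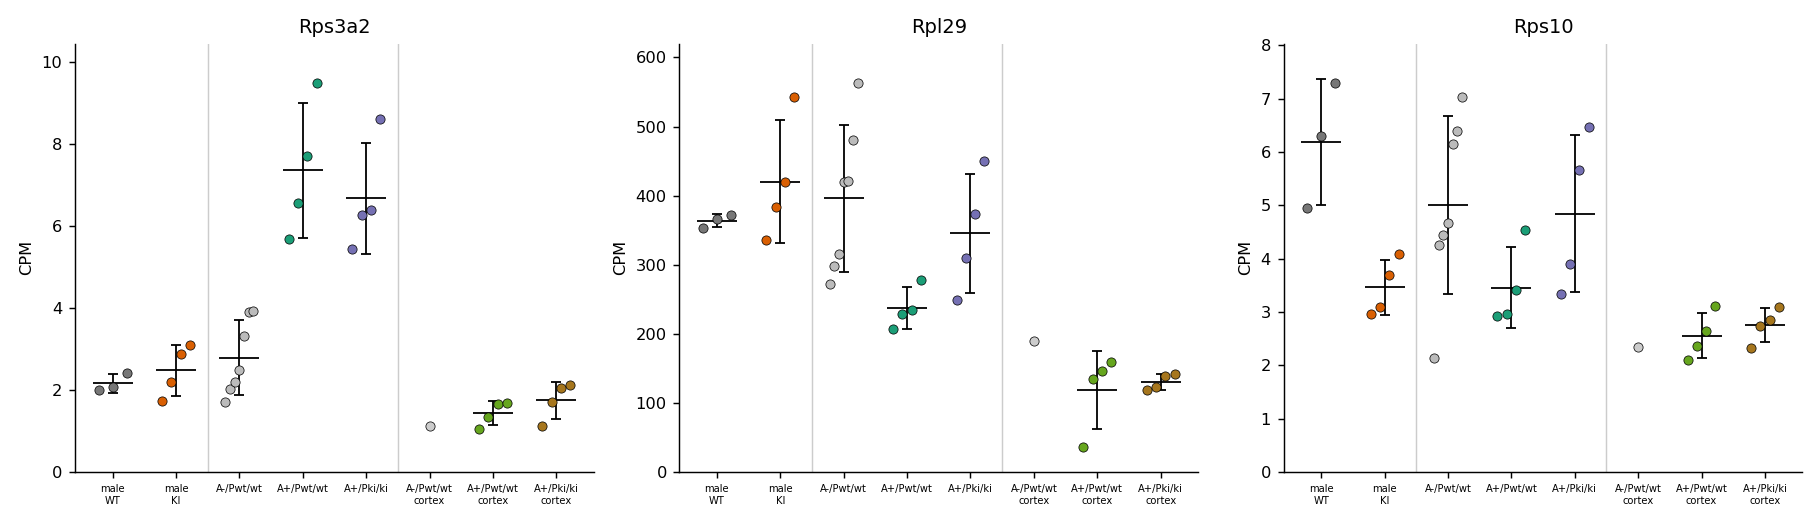
CPM of Rps3a2, Rpl29 and Rps10 in each library, with group means ± SD. Rps3a2 is at 5.44 CPM or more in every A+ female microglia library and at 3.92 CPM or less in every other library, Rpl29 has 1 cortex library at 35.8 CPM, and the WT and KI males do not overlap in Rps10.

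Microglia and cortex of A+/Pwt/wt mice were compared in 1 fit on a joint scale, and here 83 of the 86 ribosomal protein genes were called higher in microglia and 0 lower, where 37.7% of the 18541 genes tested were called higher and 40.2% lower. The median log2 fold change was 1.69, against -0.055 over all genes. With library totals in place of the joint scaling it was 1.33, with all genes at -0.421. For 83 genes every microglia library lay above every cortex library, against 34.2% of all genes, and for none of those tested did every microglia library lie below, against 38.7%. The genes called and the genes wholly above differ, as Rpl26 lay wholly above without a call and Rps3a3 was called with overlap. Large and small subunit genes had medians of 1.67 and 1.70. The mice, the RNA kits and the handling of the tissue differed between the preparations and cannot be told apart from cell type. The calls describe the preparations, and the number of cells behind each is not known.

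The stalk rose as a group. Rplp0 was at 185 to 225 CPM in cortex and 832 to 971 CPM in microglia, a log2 fold change of 2.12 ± 0.11 (SE). Rplp1 and Rplp2 rose by 1.73 ± 0.16 and 2.07 ± 0.14 on the log2 scale. Rpl5 and Rpl11 rose by 1.99 ± 0.12 and 1.70 ± 0.14, and Rpsa by 1.31 ± 0.15.

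Several small proteins of the small subunit had the steepest differences. Rps29 was at 65.5, 70.3, 90.9 and 96.6 CPM in cortex and at 923, 971, 1008 and 1409 CPM in microglia, a 13.6-fold difference (log2 fold change 3.77 ± 0.19). Rps28 differed 7.48-fold and Rps27 6.31-fold. Shorter and longer transcripts had medians of 1.70 and 1.61, while all tested genes shorter than 882 bases had a median of 0.397 and longer ones of -0.097. Rpl39l, a paralogue best known from testis, had a log2 fold change of 4.73 ± 0.78, yet reached only 2.39 CPM at its highest and was at 0 in 1 cortex library.

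Paralogues were set beside their parent genes. Rpl22l1, a paralogue of Rpl22, was at 29.5, 31.8, 33.9 and 38.0 CPM in cortex and 26.1, 28.3, 31.4 and 32.3 CPM in microglia. These ranges overlapped, and the log2 fold change was -0.14 ± 0.11 (adjusted p = 0.237, edgeR), beside 1.72 for Rpl22. Rpl7l1 rose by 0.67 beside 1.75 for Rpl7, and Rps27l by 1.64 beside 2.66 ± 0.15 for Rps27. Rps4l, an annotated pseudogene of Rps4x, was at 13.6 to 19.5 CPM in cortex and 11.4 to 15.3 CPM in microglia (log2 fold change -0.30 ± 0.14, adjusted p = 0.0773, edgeR), beside 2.14 for Rps4x. Rpl26, the other gene not called, had a log2 fold change of 1.51 ± 0.78 (adjusted p = 0.0976, edgeR) with the split libraries among both groups. Rpl3l had too few counts to be tested. It was at 0.198 to 0.433 CPM in cortex and 0.0456 to 0.0990 CPM in microglia, where every library lay below every cortex library. The differences between paralogue and parent were not tested.

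**Figure D5:**
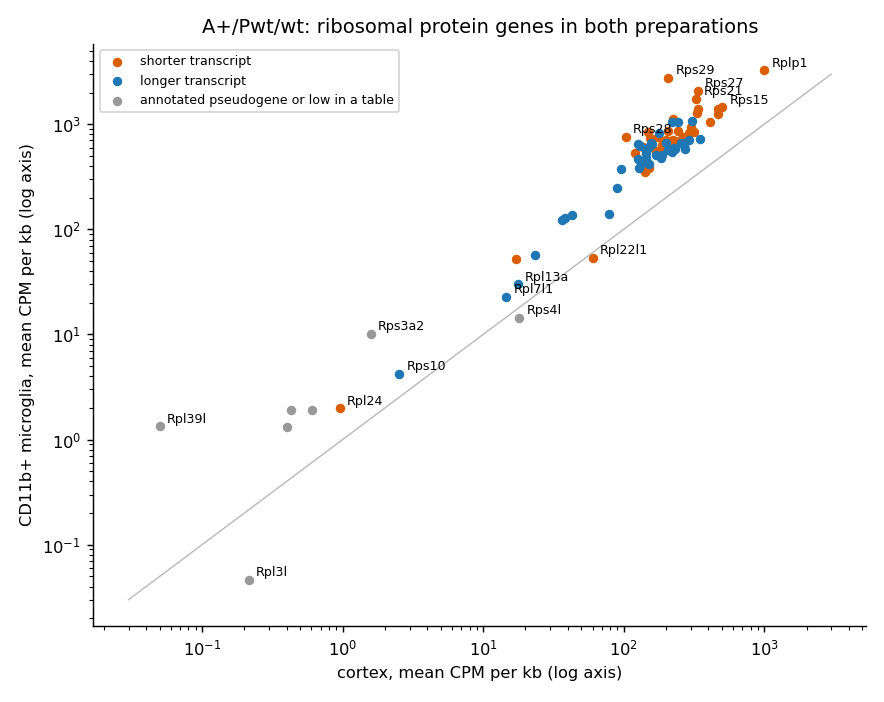
Mean CPM per kb of each ribosomal protein gene in A+/Pwt/wt CD11b+ microglia (vertical) and cortex (horizontal), both log axes, with a line of equal level. Colours give transcripts shorter or longer than the median of 882 bases, and grey marks annotated pseudogenes and genes low in a table. Most points lie above the line, Rps29 is far above it, and Rpl22l1 and Rps4l lie just under it. Rpl3l, which had too few counts to be tested, lies further under it, at 0.215 CPM per kb in cortex and 0.0466 in microglia.

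Promoters of these genes are shown because the TOP tract is set by where transcription starts. RefSeq windows (GRCm38.p6) from 250 bases before to 50 bases after the start matched 64 of the genes with 76 windows. A run of 5 or more pyrimidines that opened with C within 5 bases of the start was found in 42.1% of these windows against 18.3% of all 32851 windows. The lines give 35 bases before and 15 bases after the start for a steeply differing gene and for paralogues with small or no difference, with a run at the start in capitals.
Rps27, chr3:90213634-90213683, minus strand: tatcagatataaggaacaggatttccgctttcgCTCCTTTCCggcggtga
Rps28, chr17:33824548-33824597, minus strand: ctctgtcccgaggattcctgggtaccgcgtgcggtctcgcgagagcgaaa
Rpl22l1, chr3:28805473-28805522, plus strand: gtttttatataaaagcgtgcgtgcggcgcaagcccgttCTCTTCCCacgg
Rpl7l1, chr17:46782642-46782691, minus strand: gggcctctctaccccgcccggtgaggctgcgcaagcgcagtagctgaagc

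Rps27 had a run of 9 bases from 2 bases before the start, and Rpl22l1 a run of 8 bases from 4 bases after it. Whether such runs go with the differences between microglia and cortex was not tested. Rps28 and Rpl7l1 had none in this window at the annotated start. Across the 300-base windows CTTTCC on the coding strand was in 36.8% of the ribosomal protein windows and 14.1% of all windows. AAGATGGC, on either strand, was in 10.5% against 2.75%, CCGGAAGT in 15.8% against 3.89%, and GGGCGG in 59.2% against 35.7%. TATAAA on the coding strand was in 9.21% against 8.32%. These motifs were searched as exact letters, CTTTCC may lie within a run, and a match is no proof of binding.

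Other genes of translation were placed beside the ribosomal proteins in the same microglia and cortex fit. Ribosome constituents outside the name rule, among them Fau and Rack1, gave 4 of 5 called higher, with log2 fold changes of 2.07 and 1.72 for those named. Other TOP mRNAs gave 21 of 22 called higher with a median of 1.04, among them Tpt1 at 2.15. These lists share genes, and Eef1a1 and Eef2 are among both the other TOP mRNAs and the elongation factors. Of 7 elongation factors 5 were called higher and 1 lower, with Eef1a1 at 1.72 and the neuronal form Eef1a2 at -2.72. Initiation factors gave 17 higher and 7 lower of 35 (median 0.24), and ribosome assembly factors 33 higher and 27 lower of 76 (median 0.04), with Ncl at 1.13 and Npm1 at 1.54. Mitochondrial ribosomal proteins went the other way, with 4 higher and 63 lower of 77 and a median of -0.54. Regulators of mTOR and TOP translation were divided, with 8 higher and 9 lower of 22.

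In the genotype comparisons these lists had few calls. Between KI and WT males 1 of 7 elongation factors, 1 of 35 initiation factors and 1 of 77 mitochondrial ribosomal proteins were called higher (edgeR, adjusted p under 0.05). The elongation factor was the neuronal form Eef1a2, at 2.15 ± 0.28. Ribosome assembly factors gave 1 higher and 2 lower of 75, regulators of mTOR and TOP translation 1 higher and 2 lower of 22, and RNA polymerase I genes 1 lower of 13. Between A+ and A-/Pwt/wt microglia, 1 of 5 constituents outside the rule was called higher in each comparison, Rps27rt, a retrogene of Rps27, at 1.76 ± 0.32 in A+/Pwt/wt (adjusted p = 0.0186) and 1.58 ± 0.35 in A+/Pki/ki mice (adjusted p = 0.0444, both edgeR). Of the pseudogenes named after a ribosomal protein gene, 4 of 72 and 4 of 73 were called higher there and none lower. No other list of translation genes had a call there. None of the lists had a call between A+/Pki/ki and A+/Pwt/wt mice in microglia or in cortex, or in the interaction (edgeR).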

How the data were processed

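Poly(A) RNA of 31 libraries was sequenced paired-end. The authors trimmed reads with Trimmomatic 0.39 after FastQC 0.11.7, aligned them with STAR 2.7.9a to GRCm38 with Gencode M25, and counted unique primary alignments without strand by featureCounts (2.12.0 per the labels), so reads that match a gene and its copies equally were not counted. The deposited count tables, 1 per preparation, hold raw counts per gene. The deposited log2 tables, variance-stabilized by the authors with DESeq2 under R 4.2.2, served as an alternative only.

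Here edgeR 4.0.16 (R 4.3.3) with TMM scaling and the two-sided quasi-likelihood test was fitted to all genes with 10 or more counts in 3 or more fitted libraries, and p-values were Benjamini-Hochberg adjusted over all genes tested at a threshold of 0.05. Log2 CPM used a prior count of 2. The SE of a log2 fold change is its size divided by the square root of the F statistic. CPM per gene is scaled within a preparation, and the microglia and cortex comparison was scaled jointly. DESeq2 1.42.0, limma 3.58.1, other scalings and filters, counts with pseudogenes added, and leaving out each library were alternatives. The fits were tested on simulated counts. Transcript lengths and sequences came from Gencode M21 (GRCm38), promoters from RefSeq. Replicates are libraries of separately numbered mice, and mouse number 236 is on both a microglia A-/Pwt/wt and a cortex A+/Pwt/wt library. The ribosomal protein genes and the other lists were chosen with earlier results of these data known. Named genes were drawn from the 4 highest and 4 lowest log2 fold changes of each comparison, those called where 5 or fewer were, the 5 most and 3 least abundant per length in each tissue, the stalk, Rpsa, Rpl5, Rpl11, and 7 paralogues with their parents, and up to 3 of each other list by mean CPM. Genes named for lying apart from their group, for a pseudogene split or for a call under an alternative, and Rps27rt, were chosen after their values were seen. Calls in KI males that rest on 1 gene of the other lists are not reported here.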

Additional observations from a re-analysis of the deposited data

Results flagged for a closer look

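Values of single libraries that lay far from the others of their group were looked for in 177 sets of 4 to 7 libraries, and 18 were found. Chance gives about 1 in 20 such sets. A library far above its group was seen in A+/Pki/ki female mouse 335 for Rpl37 (834 CPM), Rpl38 (476 CPM), Rpl41 (1088 CPM), Rps15 (1063 CPM), Rps21 (1074 CPM), Rps27 (917 CPM), Rps29 (1332 CPM) and Rpsa (1381 CPM). Among A+/Pwt/wt females it was seen in mouse 331 for Rpl38 (433 CPM), Rps21 (877 CPM) and Rps28 (393 CPM), and in mouse 375 for Rpl39l (2.20 CPM). Among KI males mouse 104 lay far above the others in the share of counts (4.71%) and in Rpl10a (399 CPM), Rpl41 (827 CPM), Rplp2 (667 CPM) and Rps18 (507 CPM). In A+/Pki/ki cortex, mouse 203 was far below the others in Rps2 (298 CPM), and it is 1 of the libraries in which Rps2-ps10 held a large share of the summed CPM. The genes flagged in 1 library share that library, so these are not separate observations.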

How the results depend on the processing

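No paired analysis was possible because the groups compared share fewer than 2 mouse numbers. In KI males, 6 ribosomal protein genes were called higher without the count filter and 5 by DESeq2 (0 in the main fit), and 0 to 4 when 1 library was left out; the count called lower was 0 with either set of pseudogenes added and 0 to 2 with a library left out. For A+/Pwt/wt against A-/Pwt/wt, DESeq2 called 1 lower, and 0 to 1 were higher with a library left out. For A+/Pki/ki against A-/Pwt/wt, 0 were higher under library totals or without the filter, 2 by DESeq2, and 0 to 1 with a library left out. In the interaction DESeq2 called 1 lower, and with a library left out 0 to 9 were higher and 0 to 1 lower, the upper ends without mouse 335. For microglia against cortex, 2 were lower under library totals (Rps4l and Rpl22l1), 1 without the filter, and 0 to 1 with a library left out, the upper end without cortex mouse 329; the median was 1.33 under library totals. Library totals moved the median of all genes to -0.115 in males, where the list median was 0.093. Of all genes in males, 11.1% were called higher in the main fit and 14.8% by DESeq2. Shares of all genes are given above for the DESeq2 calls and for the fits without mouse 104 or 335. They are not given for the other alternatives, so those counts cannot be set against the calls among all genes.

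Signs of single genes turned in few fits. Rpl24 was 0.29 in males and 0.31 in the interaction with sequence-matched pseudogenes added, and Rps2 in A+/Pki/ki against A-/Pwt/wt was 0.036 and 0.040 with named or matched pseudogenes added. With 1 library left out, the log2 fold change of Rpl26 ran from -0.90 to 0.10 in males and from -1.11 to 0.23 in A+ females, and in cortex that of Rpl38 from -0.16 to 0.043, of Rps21 from -0.14 to 0.027, of Rpl23a from -0.084 to 0.022 and of Rpl24 from -0.029 to 0.38. Of the values of single genes under an alternative, 1001 kept their direction and side of the threshold. The cause of these changes was not tested. Adding sequence-matched pseudogenes was chosen after seeing the data. Precision is limited by 3 to 7 libraries a group, by 1 A-/Pwt/wt cortex library, and by counts of a few CPM for Rps10, Rpl24, Rpl39l and Rps3a2.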
